A study of Mus musculus with 6 samples.

Results

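Mitochondrial oxidation of long-chain fatty acids was followed through 10 genes chosen by name, all 10 of which were found among the 55471 genes of the table and passed the filter on low counts. The cells were of the mouse line 10T1/2, embryonic fibroblasts that were grown in medium with serum and received no treatment. One group was wild type (WT, n = 3 libraries) and the other carried the genotype label Ranbp2 KO (n = 3), made with CRISPR/Cas9 against Ranbp2, the gene of a nucleoporin on the cytoplasmic side of the nuclear pore. The design text calls the 3 libraries of a group biological replicates, but how many clones stand behind the second group and how the cultures were kept apart is not stated, so a p-value reflects how far these libraries scatter and no more.

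A long-chain fatty acid is first joined to coenzyme A by an acyl-CoA synthetase. Carnitine palmitoyltransferase 1 (CPT1) on the outer mitochondrial membrane moves the acyl group to carnitine, a translocase of the inner membrane carries the acylcarnitine inside, and carnitine palmitoyltransferase 2 (CPT2) returns it to coenzyme A. Acyl-CoA dehydrogenases of graded chain-length preference and the trifunctional protein then shorten the chain, a route used heavily by heart, liver and brown fat and at lower rates by cultured fibroblasts.

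The promoter sequences of the members with the largest fall and the largest rise, and the short stretch between the divergent Hadha and Hadhb genes, are shown because the values below turn on these genes. Promoter windows of all 10 members were matched in RefSeq (build GRCm38.p6). The stretches printed lie outside the GENCODE bounds of the genes, at chr9:108661886-108662087 (plus strand) for Slc25a20, chr1:66863310-66863559 (minus strand) for Acadl, and chr5:30155163-30155247 (plus strand) for the 85 bases between Hadha and Hadhb. Capitals mark GC boxes (GGGCGG) in either direction.
Slc25a20: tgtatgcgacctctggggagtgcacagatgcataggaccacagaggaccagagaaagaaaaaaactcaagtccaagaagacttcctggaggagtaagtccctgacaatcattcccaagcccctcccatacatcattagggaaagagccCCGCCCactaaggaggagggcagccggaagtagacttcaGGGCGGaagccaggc
Acadl: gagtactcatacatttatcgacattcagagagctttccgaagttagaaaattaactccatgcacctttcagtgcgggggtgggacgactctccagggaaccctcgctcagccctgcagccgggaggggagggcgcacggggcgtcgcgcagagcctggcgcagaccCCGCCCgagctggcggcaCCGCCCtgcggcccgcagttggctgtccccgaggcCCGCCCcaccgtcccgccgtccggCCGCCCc
Hadha-Hadhb: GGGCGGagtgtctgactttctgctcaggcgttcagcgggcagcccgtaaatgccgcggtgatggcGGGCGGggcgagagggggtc
In the 250 bases upstream of the start, on both strands, a GC box was present in 8 of the 10 members, against 32.7% of all 32851 promoter windows of that length. Members were counted by gene over 11 windows, with an extra one for Acsl1, whereas the shares are by window. The stretches upstream of Hadha and Hadhb are largely the same bases, so these members are not separate cases. The half-site AGGTCA, the core letters bound by nuclear receptors such as PPAR and ERR, was present in 4 members (Cpt1a, Cpt1c, Acadvl and Acadm) and in 14% of all windows. The direct repeat of 2 such half-sites, which contains the single one, with 1 base between them was found in 0 members and in 0.0335% of all windows, or in 0 members and 0.484% of windows when 1 mismatch was allowed. The CCAAT box (CCAAT) was present in 3 members and in 33.8% of windows, whereas the cAMP element (TGACGT) and the E-box (CACGTG) were in 0 members and in 6.47% and 6.02% of windows. These matches describe letters in the windows only, and some windows hold both a GC box and a half-site.

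Libraries held 32072817 to 46321967 expected counts. Levels are given as counts scaled to a common library size (CPM). The transcript of the targeted gene Ranbp2 was above, not below, WT in the KO-labelled libraries, at 288.7 to 293.8 CPM against 219.6 to 249.96 CPM in WT, a log2 difference of 0.28 (SE 0.07, edgeR adjusted p = 0.012). The second group is therefore named by its label, and each direction below compares libraries labelled KO with WT. The chromosome M share of counts was 3.49% to 4.46% in KO-labelled and 2.59% to 3.82% in WT libraries. All 11 fibroblast markers could be tested, with summed levels of 26807 to 33728 CPM in KO-labelled and 21327 to 24742 CPM in WT libraries; 5 were higher and 3 lower, with Fn1 the highest and Thy1 falling from 58.3 to 0.533 CPM. All 8 adipocyte and all 8 hepatocyte markers were too low to test, with sums of at most 0.257 and 0.0522 CPM in any library. Lep and 6 of the hepatocyte markers stood at 0 in all libraries, while Adipoq and Alb were the highest of the others.

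Of the 10 members, 5 were higher and 2 lower in KO-labelled libraries and 3 did not pass the test, by edgeR's quasi-likelihood test with Benjamini-Hochberg adjustment over all 15454 genes tested at a threshold of 0.05. The same rule called 17.6% of all genes higher, 21.3% lower and 38.9% in either direction. With upper-quartile factors the balance over all genes turned, to 3336 higher and 2758 lower from 2721 and 3290, while the members called were still 5 higher and 2 lower. The synthetase gene Acsl1, the dehydrogenase genes Acadl and Acadm, Cpt2 and Hadha were the members that rose, while the carnitine carrier gene Slc25a20 and the CPT1 isoform gene Cpt1c fell. The 7 called members were also those whose 3 KO-labelled values lay outside the WT range, as did 51.4% of all genes. The median log2 difference was 0.20 over the members and 0.01 over all genes tested, and differences ran from -0.94 to 0.61. A difference beyond 1.5-fold was found for 3 members and for 23.3% of all genes. In bulk RNA, fewer cells with a transcript and less of it per cell cannot be told apart.

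**Figure D1:**
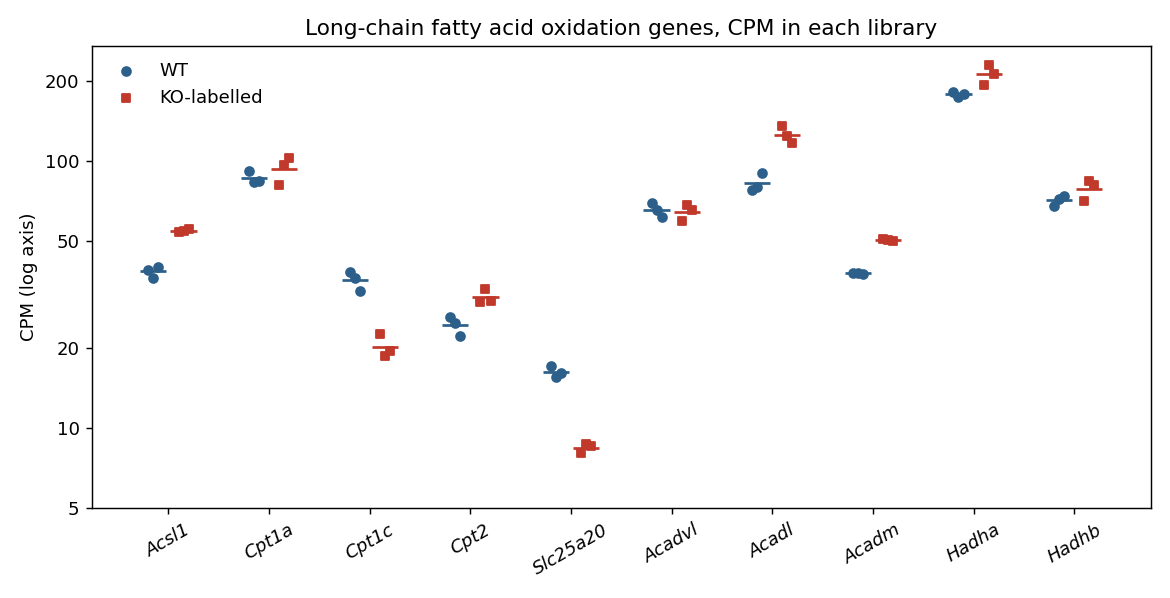
CPM of each member in every library on a log axis, with WT as blue circles, KO-labelled as red squares and group means as lines (n = 3 per group). The groups do not overlap for 7 members and overlap for Cpt1a, Acadvl and Hadhb.

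In the activation step, Acsl1 rose. Acsl1 (ENSMUSG00000018796, chromosome 8, 46471037 to 46536051, plus strand) encodes a long-chain acyl-CoA synthetase that supplies both oxidation and lipid synthesis. It stood at 54.0, 54.5 and 55.8 CPM in KO-labelled and at 39.1, 36.5 and 40.1 CPM in WT libraries. The groups did not overlap, and the spread was narrow in both. The rise was 1.42-fold, a log2 difference of 0.51 (SE 0.07, edgeR adjusted p = 0.000353). Its chromosome showed a median log2 difference of -0.01 over 804 genes tested.

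The 4 other long-chain synthetases moved in different directions, with 1 higher, 1 lower, 1 not passing and Acsl6 too low to test. Acsl3, an isoform of the endoplasmic reticulum and lipid droplets, rose from 50.6 ± 2.16 (SD, n = 3) to 86.1 ± 2.65 CPM. It lies on chromosome 1, whose tested genes had a median log2 difference of 0.29, and was 0.48 above that median. The part of the chromosome in this rise was not tested. Acsl4, which prefers arachidonic acid, fell from 69.4 ± 6.17 to 51.5 ± 3.11 CPM. Acsl5 stood at 145.7 ± 5.08 CPM in KO-labelled and 153.7 ± 4.20 CPM in WT libraries (edgeR adjusted p = 0.36). Per kilobase of exon, Acsl1 made up 6.16% ± 0.175 of the family in WT and 8.11% ± 0.222 in KO-labelled libraries (SD, n = 3). Acsl3 went from 19.4% ± 0.388 to 30.6% ± 0.795 on this scale. Within each library, the ratio of Acsl1 to Acsl4 per kilobase was 0.321, 0.267 and 0.276 in WT and 0.513, 0.583 and 0.551 in KO-labelled libraries. These ranges did not overlap, and the exact two-sided permutation test gave p = 0.1, the smallest possible with 3 against 3 (0.14 after adjustment over 7 ratios). As every KO-labelled value lay above WT for Acsl1 and below WT for Acsl4, the ratio had to separate. The test of this ratio therefore only restates the single-gene results.

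In the carnitine shuttle, the carrier and the CPT1 isoform gene Cpt1c fell, Cpt2 rose, and Cpt1a did not pass the test. Slc25a20 (ENSMUSG00000032602, chromosome 9, 108662088 to 108684641, plus strand) encodes the carnitine-acylcarnitine translocase of the inner membrane. It stood at 8.04, 8.73 and 8.52 CPM in KO-labelled and at 17.1, 15.6 and 16.1 CPM in WT libraries. Each KO-labelled library held between 267 and 340 expected counts of it and each WT library between 676 and 715. The highest KO-labelled value was below the lowest WT value by more than the spread within either group. The log2 difference was -0.94 (SE 0.09, 95% interval -1.11 to -0.77, edgeR adjusted p = 2.71e-05), so the level fell by 48.0%. The 54 tested neighbours within 1 Mb had a median of -0.24 and its chromosome a median of -0.17.

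Cpt1a (ENSMUSG00000024900, chromosome 19, 3322334 to 3385733, plus strand) encodes the CPT1 of liver and most other tissues, the malonyl-CoA-sensitive entry step. It stood at 81.4, 96.8 and 102.3 CPM in KO-labelled and at 91.9, 83.6 and 84.0 CPM in WT libraries. The first KO-labelled library was the lowest of the 6 and the other two the highest, so the groups overlapped. The log2 difference was 0.11 (95% interval -0.07 to 0.29, edgeR adjusted p = 0.364).

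Cpt1c (ENSMUSG00000007783, chromosome 7, 44959372 to 44974851, minus strand) encodes an isoform known from brain that lies in the endoplasmic reticulum and has little acyltransferase activity. It stood at 22.5, 18.6 and 19.3 CPM in KO-labelled and at 38.5, 36.5 and 32.6 CPM in WT libraries. The groups were well apart, and the level fell by 43.8%, a log2 difference of -0.83 (SE 0.09, edgeR adjusted p = 0.000117). An annotated antisense gene, 6530437J22Rik, covers 6.53% of the Cpt1c exon bases and was at most 0.128 CPM in any library. Of 8 neuron markers 3 could be tested, with summed levels of 261.4 to 281.8 CPM in KO-labelled against 215.4 to 237.6 CPM in WT and Nefl at 0 in all libraries. Map2, a chromosome 1 gene that makes up most of the sum, rose from 177.2 to 270.7 CPM. Stmn2 fell from 34.6 to 0.0363 CPM and Tubb3 from 15.4 to 2.03 CPM. Their part in the Cpt1c result was not tested.

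Cpt2 (ENSMUSG00000028607, chromosome 4, 107903981 to 107923610, minus strand), the inner-membrane transferase, stood at 29.6, 33.2 and 29.98 CPM in KO-labelled and at 26.1, 24.6 and 22.1 CPM in WT libraries. The groups did not overlap, but the gap between them was smaller than the range of WT. The rise was 1.27-fold, a log2 difference of 0.35 (SE 0.08, edgeR adjusted p = 0.00901). The 29 neighbours tested within 1 Mb had a median of 0.25, and their part in the result was not tested.

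The balance within the shuttle can be read from ratios inside each library, which no scaling between libraries can move. The ratio of Slc25a20 to Cpt2 per kilobase of exon was 0.134, 0.130 and 0.140 in KO-labelled and 0.323, 0.312 and 0.359 in WT libraries. This is a change to 0.407 times the WT ratio, with no overlap (exact permutation p = 0.1, adjusted 0.14). Every KO-labelled value lay below WT for Slc25a20 and above WT for Cpt2, so this ratio had to separate. Its test adds nothing to the single-gene results. The ratio of Cpt1c to Cpt1a was 0.377, 0.262 and 0.258 against 0.571, 0.595 and 0.529, again with no overlap (exact permutation p = 0.1, adjusted 0.14). Cpt1a varied too little among the libraries to close the gap in Cpt1c, so this ratio had to separate as well. Its test likewise only restates the single-gene result. For Cpt2 to Cpt1a the ranges overlapped (exact permutation p = 0.2, adjusted 0.2), with mean ratios of 1.06 in KO-labelled and 0.896 in WT libraries. The size of such a ratio depends on the length used, though its log2 difference between groups does not. With the longest transcript, Cpt2 to Cpt1a was 0.606 and 0.510 and Slc25a20 to Cpt2 0.235 and 0.579 in KO-labelled and WT libraries. Among the CPT1 genes, Cpt1a made up 61.2% ± 2.25 of the CPM per kilobase in WT and 73.4% ± 4.76 in KO-labelled libraries (SD, n = 3). Cpt1c took 34.5% ± 0.831 and 21.7% ± 3.38, and Cpt1b, the muscle isoform, 4.29% ± 1.53 and 4.91% ± 1.45.

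**Figure D2:**
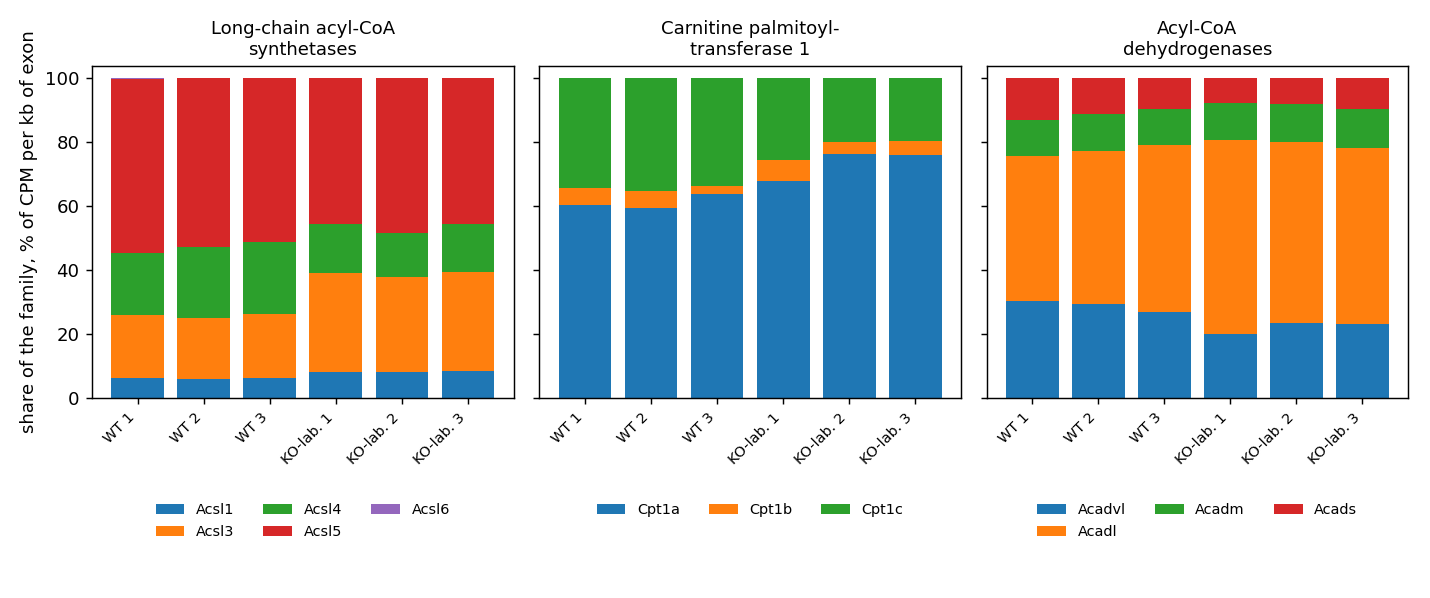
Share of each gene in its family in every library, as percent of the family's CPM per kilobase of exon, for the acyl-CoA synthetases, the CPT1 genes and 4 acyl-CoA dehydrogenases. Bars add up to all of the genes shown. Cpt1c is a smaller part of the CPT1 genes in the 3 KO-labelled libraries (21.7% on average against 34.5%), and Acsl6 is barely visible.

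Of the acyl-CoA dehydrogenases, the long-chain and medium-chain genes rose, and the very-long-chain gene did not pass the test. Acadvl (ENSMUSG00000018574, chromosome 11, 70010183 to 70015411, minus strand) encodes the membrane-bound very-long-chain enzyme. It stood at 59.5, 68.4 and 65.8 CPM in KO-labelled and at 69.5, 65.3 and 61.6 CPM in WT libraries. The groups overlapped, with a log2 difference of -0.02 (95% interval -0.18 to 0.14, edgeR adjusted p = 0.863), and the sign turned under some alternative settings. Exons of Dvl2 on the other strand cover 42.9% of the Acadvl exon bases, and since the strand setting of the counting is not known, reads of both genes may have been shared, here and in the ratios to Acadvl. Dvl2 stood at 42.5 ± 3.10 CPM in KO-labelled and 44.3 ± 6.34 CPM in WT libraries (edgeR adjusted p = 0.707).

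Acadl (ENSMUSG00000026003, chromosome 1, 66830839 to 66863277, minus strand), the matrix long-chain enzyme, stood at 135.2, 124.1 and 117.2 CPM in KO-labelled and at 77.6, 79.8 and 90.1 CPM in WT libraries. The lowest KO-labelled value lay above the highest WT value by more than the range of either group. This was the largest rise among the members, 1.52-fold, a log2 difference of 0.61 (SE 0.08, edgeR adjusted p = 0.000336). Genes of chromosome 1 had a median log2 difference of 0.29 over 967 genes tested, and the 9 tested neighbours within 1 Mb of Acadl a median of 0.61. Map2, given above as a neuron marker, is among these neighbours and had a difference of 0.61. Relative to its chromosome, Acadl was 0.32 higher. The part of the chromosome in this result was not tested.

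Acadm (ENSMUSG00000062908, chromosome 3, 153922357 to 153944632, minus strand), the medium-chain enzyme, stood at 50.9, 50.7 and 50.3 CPM in KO-labelled and at 38.1, 38.2 and 37.8 CPM in WT libraries. Its libraries differed less within a group than those of any other member. The rise was 1.33-fold, a log2 difference of 0.41 (SE 0.06, edgeR adjusted p = 0.00071), on a chromosome with a median of 0.01. The 6 tested neighbours within 1 Mb had a median of 0.22.

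The mean ratio of Acadl to Acadvl per kilobase was 1.70 ± 0.237 in WT and 2.62 ± 0.368 in KO-labelled libraries, and that of Acadm to Acadvl 0.399 ± 0.0225 and 0.540 ± 0.0421 (SD, n = 3). For both ratios the groups did not overlap, and the exact permutation test gave p = 0.1 (adjusted 0.14). Acadvl varied too little among the libraries to close the gap in Acadl or Acadm, so both ratios had to separate. Their tests add nothing to the single-gene results. Acads, the short-chain enzyme, stood at 20.6 CPM in KO-labelled and 21.4 CPM in WT libraries on average (edgeR adjusted p = 0.761). Of the summed CPM per kilobase of Acadvl, Acadl, Acadm and Acads, Acadl made up 48.6% ± 3.58 in WT and 57.6% ± 2.82 in KO-labelled libraries, with Acad9, Acad10 and Acad11 left out of the sum.

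Of the trifunctional protein genes, Hadha was called higher and Hadhb was not. Hadha and Hadhb encode the alpha and beta subunits of the complex that carries out the remaining steps on long chains. They lie head to head on chromosome 5, Hadha (ENSMUSG00000025745) at 30118304 to 30155162 on the minus strand and Hadhb (ENSMUSG00000059447) at 30155248 to 30184593 on the plus strand, separated by the 85 bases printed above. Hadha stood at 193.0, 228.4 and 212.6 CPM in KO-labelled and at 182.0, 173.4 and 178.5 CPM in WT libraries. Hadhb stood at 70.8, 84.4 and 81.1 CPM in KO-labelled and at 67.6, 72.1 and 74.0 CPM in WT libraries. Among KO-labelled libraries both genes were lowest in the first and highest in the second, and of the pair only Hadhb had a KO-labelled value inside the WT range. Hadha rose 1.19-fold, a log2 difference of 0.25 (SE 0.08, edgeR adjusted p = 0.0272), but 6 of 15 alternative settings did not call it (adjusted p = 0.00796 to 0.121 over all of them). By edgeR, it was not called without KO-labelled replicate 2 (adjusted p = 0.118) or 3 (0.0848), nor without WT replicate 2 (0.121) or 3 (0.0526). With the replicate number as a block the adjusted p was 0.0768, and with no count filter 0.0627. Hadhb had a log2 difference of 0.15 (95% interval -0.01 to 0.30, edgeR adjusted p = 0.185). The ratio of Hadha to Hadhb per kilobase was 2.06, 2.04 and 1.98 in KO-labelled and 2.03, 1.82 and 1.82 in WT libraries, and these ranges overlapped (exact permutation p = 0.2, adjusted 0.2).

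**Figure D3:**
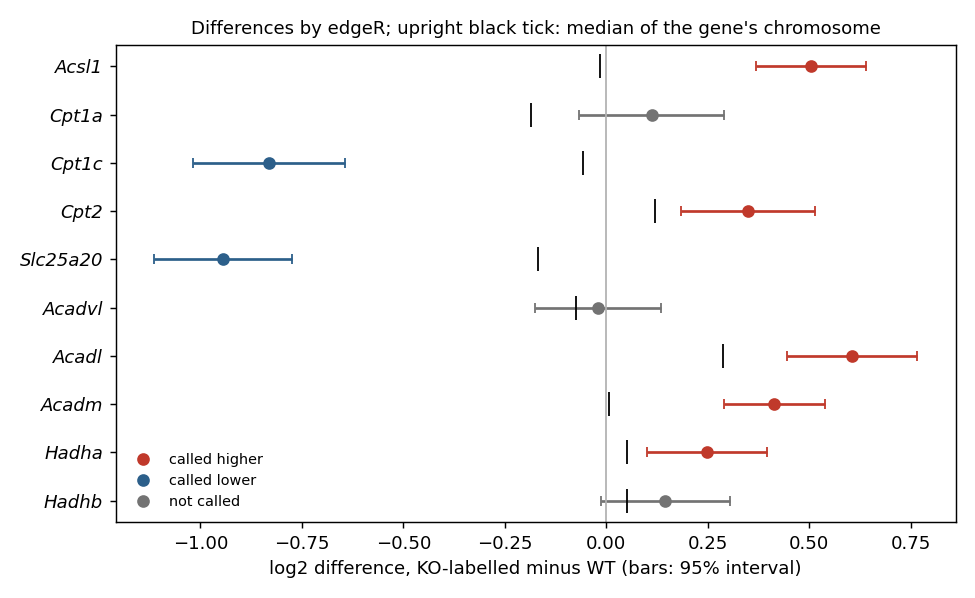
Log2 difference of each member, KO-labelled minus WT, with bars for the 95% interval and the median of all tested genes on the member's chromosome as an upright black tick. Slc25a20 (-0.94) and Cpt1c (-0.83) lie far to the left, and for Acadl (0.61) the tick stands at 0.29.

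On the scale of CPM per kilobase of union exon, WT levels ran from Acadl at 41.2 ± 3.33 through Acadvl at 24.4 ± 1.46, Hadha at 20.4 ± 0.499, Cpt1a at 11.3 ± 0.612 and Hadhb at 10.8 ± 0.502 down to Cpt1c at 6.40 ± 0.530, Acsl1 at 3.68 ± 0.175 and Slc25a20 at 3.35 ± 0.158. Cpt2 and Acadm stood at 10.1 ± 0.846 and 9.71 ± 0.0522. In this order the neighbours Cpt1a and Hadhb, Hadhb and Cpt2, Cpt2 and Acadm, and Acsl1 and Slc25a20 had overlapping values. In KO-labelled libraries Acadl stood at 62.6 ± 4.52 and Slc25a20, again the lowest member, at 1.74 ± 0.0730. Slc25a20 was the lowest with either measure of length, whereas Hadha was the highest in WT (44.3 against 43.1 for Acadl) when the longest transcript was used. The summed CPM of the members was 704.9 to 767.8 in KO-labelled and 625.6 to 647.3 in WT libraries, and Hadha was the largest part of it.

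Genes around the members were grouped by step. Uptake and binding genes moved both ways, with 3 of 8 tested higher, 3 lower and 2 not passing (median log2 difference 0.10), and the surface transporter gene Cd36 was too low to test. Fabp4, a fatty acid binding protein of adipocytes, rose from 8.02 ± 1.82 to 27.4 ± 2.51 CPM, and Dbi, the acyl-CoA binding protein, from 93.2 ± 7.66 to 152.8 ± 9.14 CPM. Fabp3, the heart form, fell from 1.05 ± 0.196 to 0.265 ± 0.137 CPM and Slc27a3, a member of the transport protein family, from 10.3 ± 2.51 to 5.10 ± 1.11 CPM. The list of carnitine supply and other carnitine acyltransferase genes was higher at 2 of 7 tested genes, lower at 0 and not called at 5 (median -0.07). Aldh9a1 and Tmlhe, enzymes of carnitine synthesis, rose from 31.3 ± 1.27 to 62.5 ± 5.48 CPM and from 19.98 ± 2.56 to 29.1 ± 1.07 CPM. Bbox1, the last enzyme of that synthesis, was too low to test. Dbi and Aldh9a1 lie on chromosome 1, with a median log2 difference of 0.29, and were 0.43 and 0.71 above it. The part of the chromosome in these rises was not tested. The carnitine uptake gene Slc22a5 stood at 8.21 CPM in KO-labelled and 10.1 CPM in WT libraries (edgeR adjusted p = 0.0561), and Crat, which acts on short acyl groups, at 42.95 and 47.7 CPM (0.14).

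Of 12 other mitochondrial beta-oxidation genes, 5 rose, 2 fell and 5 did not pass (median 0.08). Decr1 and Eci1, auxiliary enzymes for unsaturated fatty acids, rose from 44.2 ± 3.14 to 61.2 ± 1.12 CPM and from 16.7 ± 1.32 to 23.3 ± 1.79 CPM. Acaa2, the matrix thiolase, rose from 31.0 ± 3.59 to 43.2 ± 3.63 CPM, and Acad10, an acyl-CoA dehydrogenase family member, from 3.16 ± 0.571 to 6.85 ± 0.947 CPM. Of 4 genes of the electron transfer flavoprotein system, which takes electrons from the dehydrogenases to the respiratory chain, 1 rose and 3 did not pass (median 0.17). Etfrf1, a regulator of the flavoprotein, was the one that rose, by 0.73 (SE 0.13) on the log2 scale, while Etfa, Etfb and Etfdh had differences of 0.19, 0.11 and 0.14. Among 5 genes listed as mitochondrial acyl-CoA thioesterases 1 fell and 4 did not pass (median -0.11). Acot9 fell from 110.7 ± 8.83 to 85.6 ± 6.55 CPM, and Acot7, Acot11 and Acot2 had differences of -0.16, 0.75 and 0.17.

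Genes that set malonyl-CoA, the inhibitor of CPT1, and the subunits of its controlling kinase AMPK were higher at 1 of 11, lower at 4 and not called at 6 (median -0.18). Acacb, the acetyl-CoA carboxylase of the mitochondrial surface, rose from 0.948 ± 0.191 to 2.93 ± 0.232 CPM, a low level in both groups. The far more abundant carboxylase gene Acaca was not called, at 109.8 CPM in KO-labelled and 120.4 CPM in WT libraries (edgeR adjusted p = 0.257). Stk11, an AMPK-activating kinase, fell from 119.5 ± 9.08 to 93.1 ± 1.61 CPM, and the AMPK subunit genes Prkab1 and Prkag2 fell by 0.35 (SE 0.08) and 0.34 (SE 0.08) on the log2 scale.

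**Figure D4:**
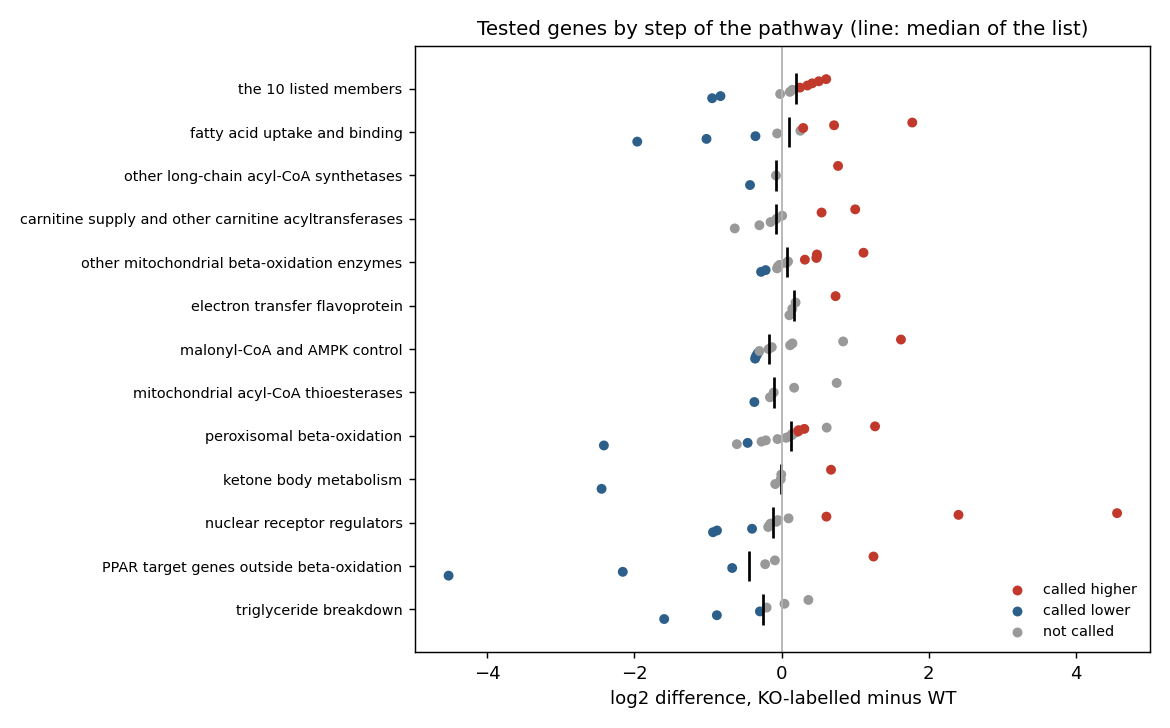
Log2 difference of every tested gene, KO-labelled minus WT, for the members and 12 related lists, with calls coloured and the median of each list as a black line. The members span -0.94 to 0.61, and the widest spread is among the nuclear receptor regulators and the PPAR target genes.

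Peroxisomal beta-oxidation, which shortens very long chains, was higher at 4 of 16 genes, lower at 2 and not called at 10 (median 0.12). Abcd2, a peroxisomal acyl-CoA transporter, fell from 1.66 ± 0.141 to 0.301 ± 0.153 CPM, and Acaa1a, a peroxisomal thiolase with a close copy in Acaa1b, by 0.46 (SE 0.13). Acox2, an oxidase of branched chains, rose from 1.06 ± 0.215 to 2.55 ± 0.709 CPM and Scp2, a lipid transfer protein and thiolase, from 77.95 ± 4.14 to 96.6 ± 5.45 CPM. Of 5 tested genes of ketone body metabolism, 1 rose, 1 fell and 3 did not pass (median -0.01). Bdh1 fell from 0.758 ± 0.221 to 0.133 ± 0.0613 CPM and Bdh2 rose from 1.88 ± 0.0499 to 3.00 ± 0.565 CPM. The ketolysis gene Oxct1 stood at 346.0 CPM in KO-labelled and 349.1 CPM in WT libraries.

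Regulators of the pathway were higher at 3 of 12 tested genes, lower at 3 and not called at 6 (median -0.11). Ppargc1a, the gene of the coactivator PGC-1alpha, stood at 6.78, 5.72 and 6.86 CPM in KO-labelled and at 0.337, 0.174 and 0.309 CPM in WT libraries. The groups were far apart, with a log2 difference of 4.56 (SE 0.24, edgeR adjusted p = 6.85e-07). Its relative Ppargc1b rose from 0.331 ± 0.0812 to 1.77 ± 0.264 CPM. In the other direction, Esrra, a nuclear receptor that works with these coactivators, fell from 19.2 ± 1.87 to 10.5 ± 0.702 CPM, and the receptor gene Nr2f2 from 122.4 ± 12.1 to 64.1 ± 5.96 CPM. Pprc1, a further relative of Ppargc1a and more abundant than it, also fell, from 88.9 ± 5.75 to 67.3 ± 3.26 CPM (edgeR adjusted p = 0.00207). Pparg, also among the genes called higher, rose from 29.1 ± 3.28 to 44.3 ± 2.32 CPM (edgeR adjusted p = 0.000627). Ppara, the receptor most tied to fatty acid oxidation in liver, was too low to test, as was Esrrg.

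Of 6 tested PPAR target genes outside the pathway, 1 rose, 3 fell and 2 did not pass (median -0.45), and the other 6 were too low to test. Angptl4, a lipoprotein lipase inhibitor, rose from 6.37 ± 0.312 to 15.1 ± 1.32 CPM. Plin2, a coat protein of lipid droplets, fell from 179.1 ± 7.24 to 112.4 ± 3.79 CPM and Vnn1, a pantetheinase, from 1.79 ± 0.197 to 0.401 ± 0.121 CPM. Acot1, a cytosolic thioesterase nearly identical to Acot2 and so uncertain, was called lower and stood at 0, 0.282 and 0.0319 CPM against 3.35, 2.54 and 1.88 CPM. Triglyceride breakdown was higher at 0 of 6 tested genes, lower at 3 and not called at 3 (median -0.25). Lipa, the lysosomal lipase, fell from 199.3 ± 7.36 to 65.9 ± 1.498 CPM. Pnpla2, the first lipase of stored triglyceride, fell from 11.1 ± 1.47 to 6.02 ± 0.245 CPM and Abhd5, its activator, from 50.6 ± 2.11 to 41.2 ± 0.794 CPM. Lipe, the hormone-sensitive lipase, stood at 2.24 CPM in KO-labelled and 2.58 CPM in WT libraries (edgeR adjusted p = 0.391).

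Striated muscle also oxidises fatty acids heavily, and of its 11 markers 3 could be tested, with 2 higher, 0 lower and a summed level of 7.78 to 11.6 CPM against 6.58 to 7.11 CPM in WT; Acta1 was the highest and Myh1 was at 0 in all libraries. Macrophage markers (Cd14 the highest, Adgre1 at 0) summed to 5.46 to 6.26 against 8.27 to 8.62 CPM, with 1 of 4 tested higher and 1 lower. Epithelial markers (Cdh1 the highest and the 1 of 6 tested, higher) summed to 6.16 to 9.16 against 2.16 to 2.63 CPM, and endothelial markers to 26.5 to 30.2 against 35.4 to 39.8 CPM. Of the 3 endothelial markers tested, Tek, the highest, fell from 37.0 to 21.9 CPM, Vwf rose from 0.269 to 6.04 CPM and 1 did not pass. The part of these markers in the members' values was not tested.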

How the data were processed

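PolyA RNA of 6 libraries was measured. The deposited values are expected counts per Ensembl gene, made with RSEM after cutadapt on GRCm38, per the submitters' processing notes; neither the aligner nor the versions or the strandedness of the counting are recorded there. RSEM shares out reads that fit several genes, and 17.9% of all values are not whole, so close copies and overlapping genes are uncertain. Symbols, positions and exon lengths came from GENCODE M21 (same build), which matched 55230 of 55471 identifiers.

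Counts were rounded, filtered with filterByExpr (minimum count 10, total 15) and scaled with TMM factors. Groups were compared with edgeR 4.0.16 in R 4.3.3 (quasi-likelihood F test, two-sided, genotype only, Benjamini-Hochberg over all genes), and the test was checked on simulated data. The TMM factors also enter the CPM, whose means stand with the SD, and SE comes from the F statistic. Ratios used union exon length and exact permutation tests. DESeq2 1.42.0 and limma 3.58.1 were alternatives. Intervals are 1.96 SE to each side.

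The members and the lists were chosen with earlier results of these data known. All members are named, then up to 4 genes with the smallest adjusted p of each pathway list and the highest marker of each cell type list. Cd36, Bbox1, Ppara, Pparg, Pprc1, Esrrg, Acaca, Acsl6, Cpt1b, Acads, Acad9, Acad11, Eci2, Acaa1b, Thy1, Stmn2, Tubb3, Vwf and Dvl2 are named outside this rule, after their values were seen. So are 6530437J22Rik and, as markers without counts, Lep, Nefl, Myh1 and Adgre1. One gene that the rule would name is not reported here.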

Additional observations from a re-analysis of the deposited data

How the results depend on the processing

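Over 15 alternatives (other scalings, filters, unrounded counts, DESeq2, limma-voom, a replicate block and each library left out), 2 members were called lower in every one, and 5 or, where Hadha was lost, 4 members higher. Of the members, 8 kept direction and call in all 15 alternatives. The exceptions were Hadha and Acadvl, whose log2 difference of -0.02 turned to 0.033 with upper-quartile factors, 0.0026 with a minimum of 1 CPM in all 3 libraries of a group, 0.035 without KO-labelled replicate 1 and 0.021 without WT replicate 1, in a range of -0.067 to 0.035 with a library left out. Among the 47 genes that the naming rule picked from the pathway lists, 40 kept direction and call in every alternative that tested them. For Fabp3, Acot11 and Bdh1 these were 14 of the 15. Oxct1, which was not called, turned to 0.0087 with library size alone, 0.042 with upper-quartile factors, 0.011 with the 1 CPM minimum, 8.23e-05 without KO-labelled replicate 1 and 0.0084 without WT replicate 3, in a range of -0.028 to 0.0084 with a library left out. Acaa1a and Bdh2 lost their calls without single libraries (adjusted p up to 0.0646 and 0.08). Calls were gained by Slc22a5 with no count filter (0.0378) and without KO-labelled replicate 1 (0.0459), by Etfa with upper-quartile factors (0.045), and by Etfdh (0.0475) and Acot7 (0.041) without WT replicate 3. Genes changed numbered 4353 to 6106 with a library left out. With the replicate block they numbered 4994, with 4 members higher and 2 lower. Deviations of same-numbered libraries correlated at -0.05, -0.12 and -0.13, and no library correlated best with its own number. The best matches were RKO1 with WT3 (0.10), RKO2 with WT1 (0.07) and RKO3 with WT2 (0.22). The numbers thus gave no sign of pairing, but so few and small correlations cannot exclude it. The cause of these shifts between settings was not tested. Depth limits what can be said of genes at a few CPM or less, such as Acacb, Acot1, Bdh1, Fabp3 and Abcd2.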
